A study of Rattus norvegicus with 48 samples.

Results

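Kupffer cells are the resident macrophages of the liver, and the RNA of whole liver carries their transcripts together with those of hepatocytes, endothelium and stellate cells. A set of 10 genes known for these cells or for macrophages in general was followed: Cd5l, Csf1r, C1qa, C1qb, C1qc, Cd68, Marco, Cd163, Clec4f and Vsig4. Genes were found on the array by the gene symbol of the platform annotation. 8 of the 10 genes had a probeset and Marco and Vsig4 had none, so nothing is reported on those. The 8 genes had 9 of the 31099 probesets of the array, since Cd5l had a second one. All 9 passed the signal filter (90 or more, on 3 or more arrays), as did 18073 probesets in all.

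The animals were male Fischer F344 rats, 9 weeks old, fed CT1 diet with sodium phenobarbital (PB) at 0, 50, 500 or 1000 ppm. They were killed after 1, 3, 7 or 14 days, and RNA of the left lateral liver lobe of 3 of the 5 animals of each group was put on 1 array each, which gave 48 arrays in 16 groups. Arrays were grouped by animal number and the study design, and for 7 arrays, all of the 50 and 500 ppm groups, the deposited title and treatment labels name another group. The array names carry 6 dates, called runs here, and all 3 arrays of 1000 ppm on day 14 belonged to run 1.

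Kupffer cells sit in the sinusoids, where they clear microbes, worn red cells and debris from portal blood. They depend on signalling through Csf1r, carry lectins and scavenger receptors, and secrete complement component C1q and the scavenger-receptor family protein CD5L (also called AIM), which circulates with IgM. Clec4f is a galactose-binding lectin known in rodents as a marker restricted to Kupffer cells, whereas Csf1r, Cd68 and the C1q chains are also used by other macrophages and monocytes. In whole-liver RNA, fewer cells of a type, less RNA per cell and more RNA from other cells cannot be told apart. Each array was scaled to a fixed mean, so a signal is relative to the other RNA on the array. The paper reports raised relative liver weight at the higher PB doses, and hypertrophy of centrilobular hepatocytes in all dose groups. The part of these in the signals of the Kupffer cell and macrophage genes was not tested.

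The tissue label was checked against cell type markers. The main probesets of all 8 genes were listed on 48 of 48 arrays, and their mean signals lay between the 73.3 percentile (Cd163) and the 95.1 percentile (Cd5l) of the probesets listed. Hepatocyte genes such as Alb were listed on 48 arrays, whereas Itgam and Ccr2, which mark recruited monocytes, were listed on 0 and Cx3cr1 on 16. Of 6 T cell genes, Cd5 was listed on 25 arrays, Cd3e on 10, and none of the other 4 on more than 2. The neutrophil genes S100a9, S100a8 and Camp were listed on 45, 18 and 0 arrays. The NK cell genes Klrd1, Nkg7 and Ncr1 were listed on 44, 19 and 0. Arrays listed 13479 to 16352 probesets. Run 1 listed fewer than the other runs (median 14232 against 15239 to 15951.5) with a higher median signal (526 against 443 to 476). The ratio of the 3' to the 5' GAPDH probeset, a sign of RNA integrity, had medians of 1.14 to 1.20 in the 4 doses. Over single arrays it ran from 0.99 to 1.76, the highest at 50 ppm on day 7. The same ratio for beta-actin ran from 2.26 to 3.79, with medians of 2.57 to 2.82 in the 4 doses.

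The promoters of 4 genes are shown because of the results below: Cd5l and Clec4f were the closest pair of the set, and C1qa and C1qb, whose products are chains of one C1q molecule, lie near each other and also varied together. RefSeq sequences of rat genome GRCr8 were used, from 250 bases before to 50 bases after each gene's start. In that set 9 of the 10 genes were present, all but C1qc. C1qc was nearer to C1qa (r = 0.87 after group means were removed) than C1qb was (r = 0.83). In Cd5l and C1qb, capitals mark GAGGAA on either strand, the core bound by the myeloid factor PU.1. C1qa and Clec4f lack these letters in the window. In Clec4f capitals mark the second copy of a perfect 54 base tandem repeat.
Cd5l, chr2:175088665-175088964, + strand: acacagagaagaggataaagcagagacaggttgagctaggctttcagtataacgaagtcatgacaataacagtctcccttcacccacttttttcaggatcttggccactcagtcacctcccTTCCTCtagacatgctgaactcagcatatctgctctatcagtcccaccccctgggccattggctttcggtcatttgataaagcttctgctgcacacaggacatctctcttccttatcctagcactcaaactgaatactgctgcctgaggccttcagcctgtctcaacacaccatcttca
Clec4f, chr4:117696358-117696657, - strand: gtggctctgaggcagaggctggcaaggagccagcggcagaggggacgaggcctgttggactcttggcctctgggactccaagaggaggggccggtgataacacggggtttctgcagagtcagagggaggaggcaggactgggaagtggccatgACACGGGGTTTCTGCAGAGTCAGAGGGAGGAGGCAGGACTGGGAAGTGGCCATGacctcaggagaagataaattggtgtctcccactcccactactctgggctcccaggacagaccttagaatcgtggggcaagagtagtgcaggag
C1qa, chr5:154419884-154420183, - strand: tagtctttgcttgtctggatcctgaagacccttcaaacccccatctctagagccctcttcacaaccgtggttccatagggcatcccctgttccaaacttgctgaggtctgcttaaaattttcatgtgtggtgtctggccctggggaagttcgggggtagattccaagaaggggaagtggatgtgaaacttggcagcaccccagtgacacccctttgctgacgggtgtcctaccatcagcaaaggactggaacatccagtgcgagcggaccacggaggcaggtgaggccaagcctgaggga
C1qb, chr5:154407778-154408077, - strand: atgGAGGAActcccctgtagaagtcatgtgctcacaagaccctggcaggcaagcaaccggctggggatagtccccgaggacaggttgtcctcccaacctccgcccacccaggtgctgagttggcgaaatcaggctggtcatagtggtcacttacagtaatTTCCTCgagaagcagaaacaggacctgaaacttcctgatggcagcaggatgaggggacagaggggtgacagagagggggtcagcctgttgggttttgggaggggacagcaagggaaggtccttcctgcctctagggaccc

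GAGGAA was found on 1 or both strands in 5 of the 9 promoters (Cd5l, Csf1r, C1qb, Cd68 and Marco), against 27.6% of all 33469 promoters in the table. TGCTGA, the core of the element bound by large MAF factors, was also found in 5 of the 9 (Cd5l, C1qa, C1qb, Cd68 and Vsig4), against 18.4% of all promoters. A repeat of at least 50 bases, as in Clec4f, was found in 0.326% of all promoters and in 1 of the 9. These are matches of letters in a window and no sites of binding.

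Across the 4 days, all 8 genes lay lower at 1000 ppm PB than in the time-matched controls, and 3 of the 8 passed the test: Cd5l, Csf1r and C1qa. Cd5l fell by 0.34 ± 0.09 on the log2 scale (SE, adjusted p = 0.00927), to 0.788 of the control level. Csf1r, the receptor for the growth factor CSF1, fell by 0.23 ± 0.07 (adjusted p = 0.0316), and C1qa, the A chain of C1q, fell by 0.21 ± 0.06 (adjusted p = 0.02). Unless another test is named, p-values of single genes are from limma with Benjamini-Hochberg adjustment over the probesets tested in a comparison. A dose over the 4 days had 12 arrays and a dose on a single day had 3. Of the 12680 probesets tested, 7.01% were called lower, and 52.3% had an estimate below 0.

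The other 5 genes had estimates of similar size without passing. They were -0.20 for Clec4f (adjusted p = 0.053), -0.21 for C1qc (adjusted p = 0.0582), -0.22 for Cd163, the receptor for haemoglobin bound to haptoglobin (adjusted p = 0.0836), -0.19 for Cd68, a lysosomal scavenger receptor (adjusted p = 0.128), and -0.15 for C1qb (adjusted p = 0.24). At an unadjusted p under 0.05, 7 of the 8 were lower, against 13.9% of all probesets. The median of the 8 was -0.21, whereas the median of all probesets was -0.01. With the array run as a block, the same 3 genes were called (adjusted p = 0.00934 for Cd5l, 0.0207 for C1qa and 0.0487 for Csf1r).

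**Figure D1:**
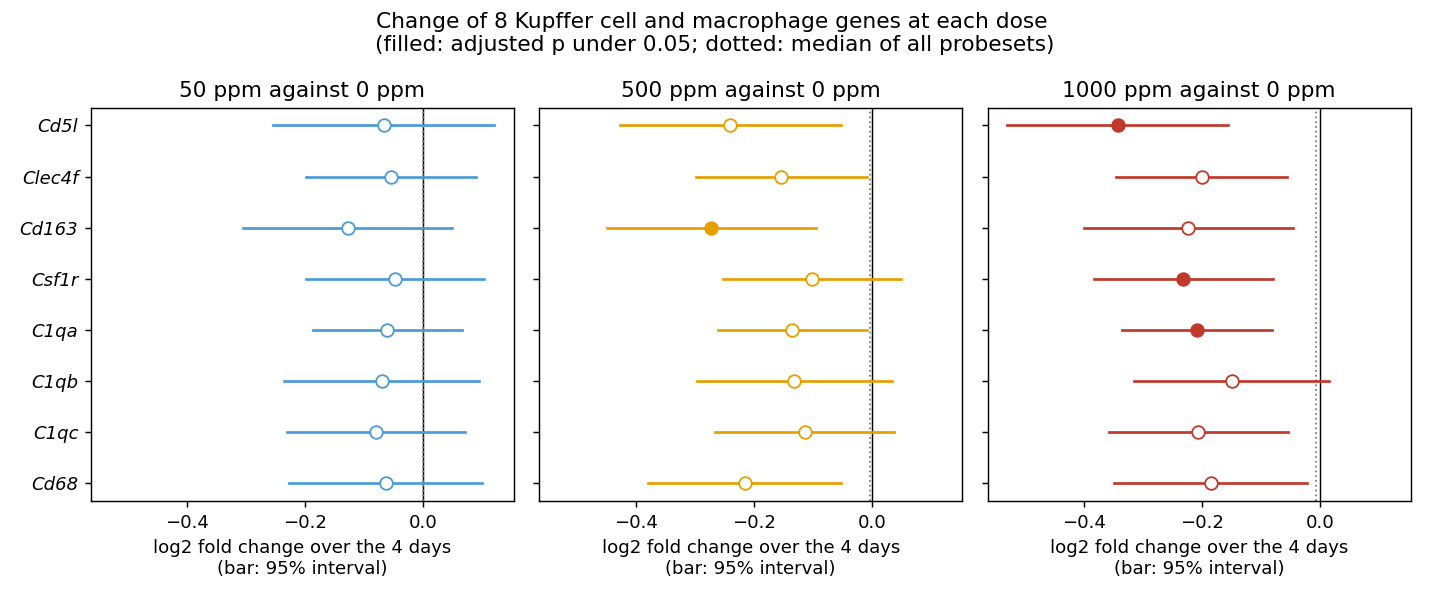
Log2 fold change (x axis) of each of the 8 genes (y axis) at 50, 500 and 1000 ppm PB against control, 1 panel a dose, averaged over the 4 days, with the 95% interval as a bar; filled points passed an adjusted p of 0.05 and the dotted line is the median of all probesets. The 8 points lie left of 0 in each panel, with medians of -0.07, -0.14 and -0.21.

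At 500 ppm all 8 estimates were below 0, as were 51.1% of all probesets, with a median of -0.14. 1 gene passed the test, against 3.99% of the 12599 probesets tested: Cd163 fell by 0.27 ± 0.09 (adjusted p = 0.0443). Its mean signal was 614 ± 90.7 (SD, n = 12) at 500 ppm and 743 ± 118 in controls, with overlap. The call was narrow: it was kept without 10 of the 24 arrays in turn and lost without the other 14 (highest adjusted p 0.0905). At an unadjusted p under 0.05, 5 of the 8 genes were lower, against 10.6% of all probesets. Among these, Cd5l had an estimate of -0.24 (adjusted p = 0.106) and Cd68 one of -0.22 (adjusted p = 0.0948).

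At 50 ppm the estimates ran from -0.13 (Cd163) to -0.05 (Csf1r), with a median of -0.07, and 0 of the 8 were called, against 0% of the 12782 probesets tested called lower. None reached an unadjusted p of 0.05, against 4.34% of all probesets, and 50.6% of all probesets were below 0. The 1000 ppm and 500 ppm groups did not differ in any of the 8 genes by the test (smallest adjusted p 0.914), and 0% of 12396 probesets were called in that comparison. None of the 8 reached an unadjusted p of 0.05 there. For Cd5l the 95% interval of that difference ran from -0.29 to 0.08, and for Cd163 from -0.13 to 0.23. The 3 doses were compared with the same 12 control arrays, so their changes are not independent of each other.

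When all doses were tested together (limma F test over the 3 doses), Cd5l was the 1 gene of the 8 to pass (adjusted p = 0.0233), against 14% of 12070 probesets. The analysis of variance of the study's methods, with dose and day as factors and limited to probesets that changed at least 1.5-fold, took in Cd5l and Cd163 of the 8 genes. Cd5l passed it (adjusted p = 0.0145) and Cd163 did not (adjusted p = 0.0648), against 29.1% of 2584 probesets.

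Cd5l showed the largest fall of the set. On day 14 its signals were 4625, 6662 and 6707 in the 3 controls and 3233, 3473 and 3496 at 1000 ppm. The groups did not overlap, and the 1000 ppm signals lay within a narrow range while 1 control was well below the other 2. Cd5l fell by 0.80 ± 0.18 on the log2 scale, to 0.575 of the control level (adjusted p = 0.00983, against 1.38% of 13523 probesets called lower). All 3 of these 1000 ppm arrays were of run 1 and no day 14 control was. Fitted with the run as a block, it was at -0.67 and no longer passed (adjusted p = 0.273). Leaving out either of the 2 higher controls also ended the call, with a highest adjusted p of 0.0646.

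On day 1 the picture for Cd5l was different. Its signals were 4584, 4657 and 8015 in controls and 4942, 5273 and 6358 at 1000 ppm, so the groups overlapped and the estimate was -0.02 ± 0.18 (adjusted p = 0.984). On day 3 the controls gave 4062, 5766 and 5771 and the 1000 ppm animals 3813, 3823 and 4294. Only the lowest control reached into the treated range, and the estimate was -0.37 (adjusted p = 0.302). On day 7 the signals were 4596, 4874 and 5154 in controls and 3951, 4102 and 4794 at 1000 ppm, with overlap and an estimate of -0.19 (adjusted p = 0.718), or 0.04 with the run as a block. The response on day 14 minus that on day 1 was -0.78 ± 0.26, which did not pass (adjusted p = 0.12, or 0.0049 unadjusted). None of the 8 genes passed in that comparison and 1 had an unadjusted p under 0.05, against 0.477% and 6.93% of 12989 probesets.

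At 500 ppm Cd5l gave 3739, 4009 and 4936 on day 14, overlapping the lowest control (estimate -0.49, adjusted p = 0.185). On day 7 it gave 3537, 3804 and 4196, all below the 3 controls (estimate -0.34, adjusted p = 0.311, or -0.06 with the run block). At 50 ppm its signals ran from 4212 to 7317 over the 4 days, within the control range of 4062 to 8015.

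The second Cd5l probeset was dim, with a mean signal of 194 and a value on 47 of 48 arrays, and it tracked the first only loosely (r = 0.38 after group means were removed). It was also lower at 1000 ppm over the 4 days (-0.50 ± 0.12, adjusted p = 0.00382). Its time course differed from that of the main probeset. On day 1 it gave 107, 144 and 150 at 1000 ppm against 169, 244 and 373 in controls (estimate -0.91, adjusted p = 0.0345), where the main probeset showed no difference. On day 7 it was at 0.04 (adjusted p = 0.968). On day 14 of 500 ppm it had values on 2 arrays, 125 and 138, against 201, 303 and 344 in controls (adjusted p = 0.0322). Neither single-day call remained with the run as a block, where the estimates were -0.88 (adjusted p = 0.601) and -0.86 (adjusted p = 0.685), against -0.91 and -1.07 without it.

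**Figure D2:**
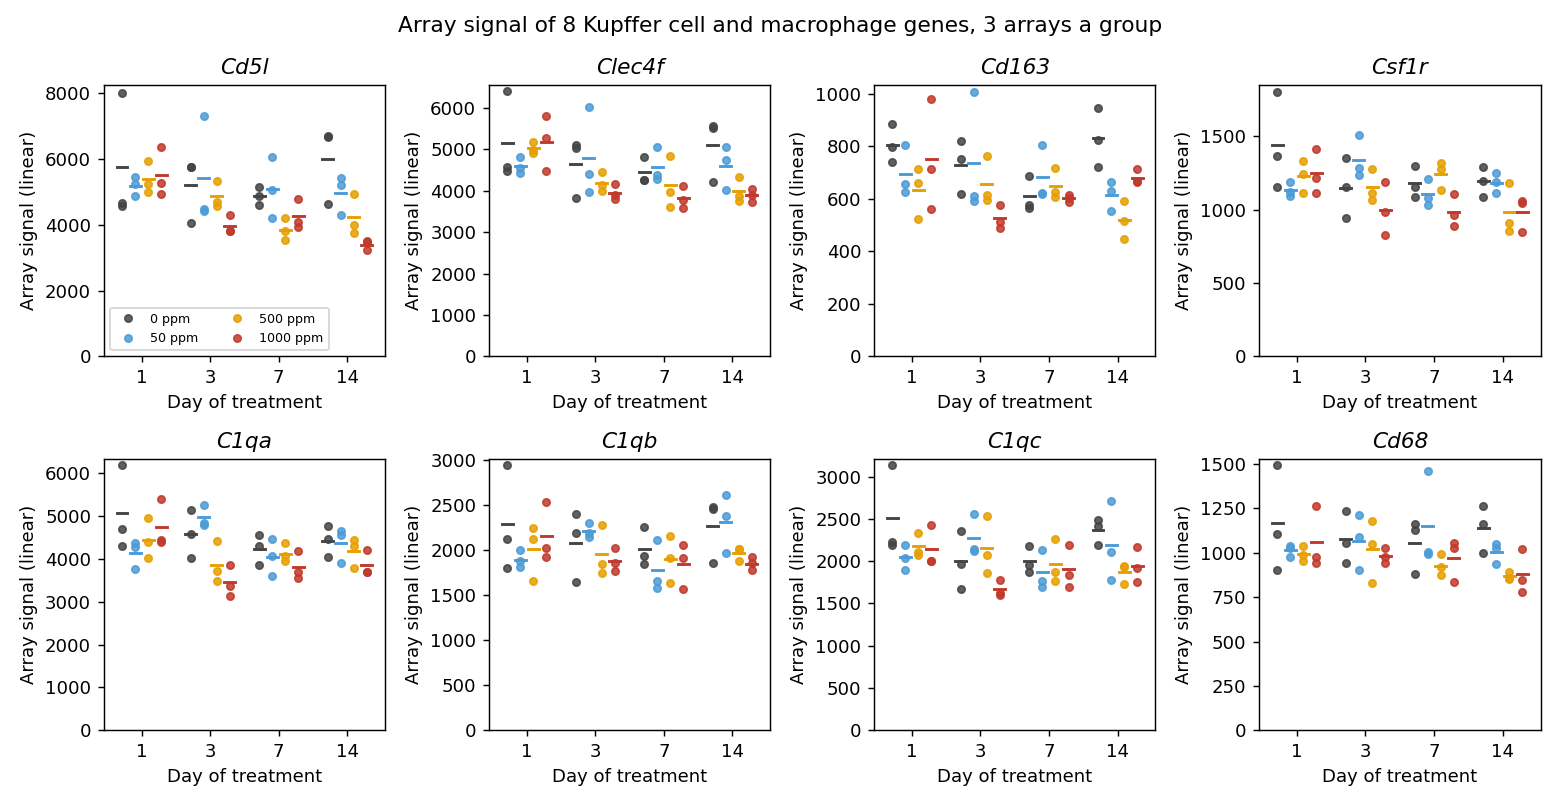
Array signal on a linear scale (y axis) against day of treatment (x axis) for the 8 genes, with 1 point per array, 3 arrays a group and bars at group means; colours give the dose. For Cd5l on day 14 the 3 signals at 1000 ppm (3233 to 3496) lie below all 3 controls (4625 to 6707), while on day 1 the doses overlap.

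Clec4f, the lectin of Kupffer cells, had no estimate that passed. On day 1 its signals were 4481, 4580 and 6410 in controls and 4466, 5271 and 5807 at 1000 ppm, and the estimate was 0.02 ± 0.14. On day 14 they were 4212, 5520 and 5566 in controls and 3735, 3894 and 4036 at 1000 ppm. The day 14 groups did not overlap, but the estimate of -0.38 ± 0.14 did not pass (adjusted p = 0.138), and it was -0.18 with the run as a block. On day 7 the 1000 ppm signals of 3579, 3764 and 4118 also lay below the controls of 4269, 4270 and 4817 (estimate -0.22, adjusted p = 0.532).

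Cd163 was called at 500 ppm on day 14. On day 14 its signals were 721, 823 and 943 in controls, 553, 628 and 662 at 50 ppm, 448, 517 and 593 at 500 ppm and 663, 667 and 712 at 1000 ppm. Every treated array was thus below every control of that day, and the 500 ppm animals were the lowest. The fall of 0.68 ± 0.17 at 500 ppm passed the test (adjusted p = 0.0367, against 0.521% of 14390 probesets called lower), and the estimates at 50 ppm (-0.43, adjusted p = 0.647) and 1000 ppm (-0.28, adjusted p = 0.422) did not. With run as a block, the 500 ppm estimate was -0.35 (adjusted p = 0.857) and the 50 ppm estimate -0.14 (adjusted p = 0.982). Without the first or the third control of day 14, or the first or second 500 ppm animal, it was also no longer called (highest adjusted p 0.196).

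On day 3 the Cd163 signals were 617, 751 and 818 in controls and 488, 511 and 577 at 1000 ppm, again without overlap (estimate -0.47, adjusted p = 0.139). On day 7 they were 565, 578 and 685 in controls and 588, 601 and 614 at 1000 ppm, and the estimate was -0.01, or -0.30 with the run block. The controls of day 7 were themselves low for this gene: their mean of 609 compares with 806 on day 1 and 829 on day 14.

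The 3 chains of C1q, which triggers the classical complement pathway, gave their largest single-day separation in C1qa on day 3. C1qa signals were 4029, 4586 and 5128 in controls and 3136, 3366 and 3852 at 1000 ppm. The groups did not overlap, and the estimate was -0.41 ± 0.12 (adjusted p = 0.0565). With the run as a block it was -0.54 and passed (adjusted p = 0.0254). On the same day C1qc gave 1594, 1624 and 1781 at 1000 ppm against 1674, 1969 and 2351 in controls, and C1qb gave 1763, 1856 and 2023 against 1643, 2185 and 2395. Both overlapped their controls, with estimates of -0.25 (adjusted p = 0.416) and -0.13 (adjusted p = 0.762), or -0.45 and -0.26 with the run block.

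Csf1r showed no single day that carried its change. Its estimates at 1000 ppm were -0.19, -0.20, -0.26 and -0.28 on days 1, 3, 7 and 14, with adjusted p from 0.322 to 0.603. The run block moved these to -0.36, -0.09, -0.29 and -0.13. On day 14 its signals were 1091, 1199 and 1291 in controls and 851, 1046 and 1062 at 1000 ppm, without overlap. Its call over the 4 days rested on all of them: without any single day the adjusted p was between 0.0514 and 0.105. Without 8 of the 24 arrays in turn, including the high control of day 1, the call was also lost (highest adjusted p 0.0759).

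Cd68, the broadest of these markers, had its lowest estimates on day 14 (-0.39 at 500 ppm, adjusted p = 0.254, and -0.37 at 1000 ppm, adjusted p = 0.209). Its day 14 signals at 500 ppm were 854, 856 and 892, all below the controls at 997, 1163 and 1263. At 1000 ppm they were 777, 846 and 1022, and the highest reached into the control range.

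**Figure D3:**
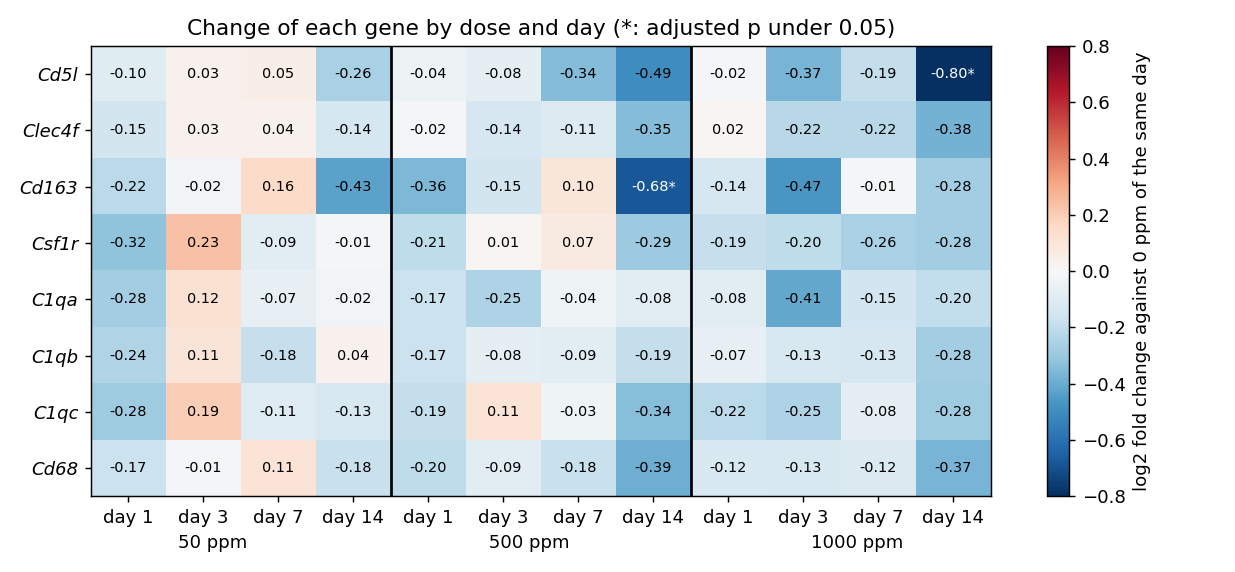
Log2 fold change of each gene (rows) against the control of the same day for each dose and day (columns), 3 arrays against 3; a star marks an adjusted p under 0.05. All 8 genes are below 0 on day 14 at both 500 and 1000 ppm, where the 2 starred values are -0.68 (Cd163) and -0.80 (Cd5l).

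In all, 80 of the 96 estimates for a gene at a dose and day were below 0. The share of all probesets below 0 was 46% to 54.8% in the 12 comparisons. The 96 estimates are not independent, since the 8 genes varied together (below) and the 3 doses of a day share its controls. Of the 96, 2 passed the test, those of Cd5l and Cd163 on day 14. The treated arrays lay wholly below the controls in 14 of the 96, and wholly above in 0. Of these, 5 were at 1000 ppm on day 14 (Cd5l, Csf1r, C1qc, Cd163 and Clec4f, against 11.2% of all probesets), 3 at 500 ppm on day 14 (Cd163, C1qc and Cd68, against 11.1%) and 2 at 1000 ppm on day 3 (C1qa and Cd163, against 12.4%). The remaining 4 were Clec4f at 1000 ppm on day 7 (against 10%), Cd5l at 500 ppm on day 7 (10.5%), Cd163 at 500 ppm on day 1 (9.83%) and Cd163 at 50 ppm on day 14 (6.39%). In the other 5 comparisons no gene was separated in this way, against 8.37%, 8.51% and 10.7% of all probesets at 50 ppm on days 1, 3 and 7, 11.3% at 500 ppm on day 3 and 11.1% at 1000 ppm on day 1. The shares of probesets called lower on days 1, 3, 7 and 14 were 0%, 0.0366%, 3.02% and 0.0627% at 50 ppm, 0.288%, 0.295%, 1.46% and 0.521% at 500 ppm, and 0.768%, 1.83%, 0.628% and 1.38% at 1000 ppm. At 1000 ppm on day 14 all 8 genes were below 0, with a median of -0.28 against 0.02 for all probesets, and 3 of them had an unadjusted p under 0.05, against 7.69% of all probesets. All 3 arrays of that group were of run 1 and no control of the day was, and the run block moved the median of the 8 from -0.28 to -0.15. The estimates then ran from -0.67 (Cd5l) to -0.06 (C1qa), with Csf1r at -0.13, C1qb at -0.08, C1qc at -0.13 and Cd68 at -0.22, all still below 0. Over the 96 estimates, 70 were below 0 with this block and 16 changed sign, 5 of them at 500 ppm on day 7 and 0 at 1000 ppm on days 3 and 14.

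Averaged over the 8 genes, the group means of 1000 and 500 ppm on day 14 were the lowest of the 16 (-0.36 and -0.35). Each array's mean log2 difference from the controls of its day was -0.27, -0.38 and -0.42 at 1000 ppm and -0.30, -0.35 and -0.41 at 500 ppm. At 1000 ppm on day 3 the values were -0.24, -0.25 and -0.33. The day 14 controls lay at -0.20, 0.09 and 0.11, so neither treated group reached them. Single arrays of other groups were as low: 1 of the 50 ppm arrays of day 14 was at -0.32 and 1 of day 1 at -0.29. In total 11 of 12 arrays at 1000 ppm, 10 of 12 at 500 ppm and 10 of 12 at 50 ppm were below 0, and by construction the controls centred on 0 (6 of 12 below).

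Neither treated group of day 14 shared a run with the controls of that day, which were of runs 5 and 6: the 500 ppm arrays were of runs 2 and 3 and the 1000 ppm arrays of run 1. The widest control group was that of day 1, where 1 animal in run 6 was at 0.35 and the other 2, in run 1, at -0.11 and -0.24. After group means were removed, the mean of the 8 genes in a run lay between -0.07 (run 2) and 0.08 (run 3). Without that high control animal the 1000 ppm estimates over the 4 days were smaller, -0.28 for Cd5l (adjusted p = 0.0236), -0.19 for Csf1r (adjusted p = 0.0759) and -0.17 for C1qa (adjusted p = 0.0507).

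**Figure D4:**
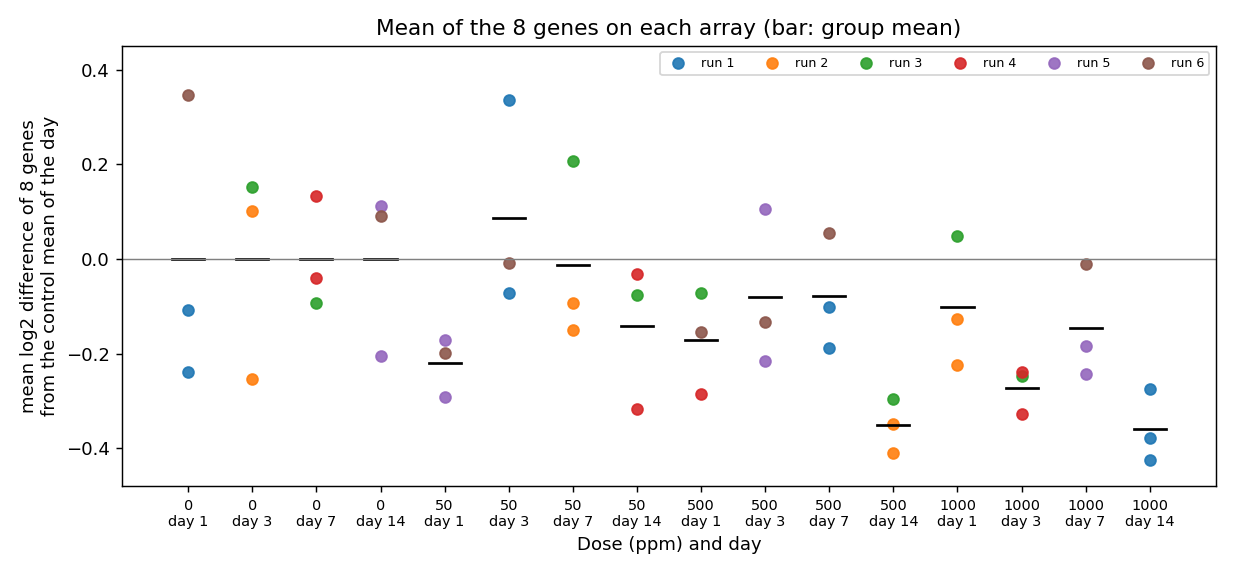
Mean log2 difference of the 8 genes from the control mean of the day (y axis) for each array, by dose and day (x axis), coloured by array run, with bars at group means. The 3 arrays of 1000 ppm on day 14 (-0.42 to -0.27, all run 1) and the 3 of 500 ppm on day 14 (-0.41 to -0.30, runs 2 and 3) lie below all 3 day 14 controls.

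Time was compared over all doses and in untreated rats. Over all doses, 0 of the 8 were called on day 14 against day 1 (against 3.23% of 12675 probesets called lower), with 3 lower at an unadjusted p under 0.05 (against 11.2%). The estimates ran from -0.26 (Cd5l, adjusted p = 0.0891) to 0.01 (C1qb). On days 3 and 7 against day 1, again 0 of the 8 were called (against 1.09% and 1.62% lower), all 8 were below 0 (against 50.4% and 49.9%), and 2 and 5 had an unadjusted p under 0.05 (against 8.28% and 8.04%). In untreated rats 0 of the 8 were called on day 14 and none reached an unadjusted p of 0.05, against 0.0426% and 6.46% of 14076 probesets lower. On days 3 and 7 the untreated rats had all 8 genes below the level of day 1 (against 52.3% and 51.4% of all probesets), with 0 called (against 0.0501% and 0.0427%). Csf1r and C1qc on day 3, and C1qc and Cd163 on day 7, had an unadjusted p under 0.05, against 4.61% and 4.82%. The control means of Clec4f were 5157 on day 1 and 5100 on day 14, and those of Cd5l were 5752 and 5998. Over all doses, the endothelial genes Fcgr2b and Lyve1 rose by 1.01 and 0.74 on the log2 scale (adjusted p = 3.93e-11 and 1.9e-06) from day 1 to day 14. Differences between days in the response to a dose were tested for 8 genes in 18 comparisons, each pair of days at each of 3 doses. Of these 144 values 0 passed (smallest adjusted p 0.12), against 0.46% over all probesets, and 9 had an unadjusted p under 0.05, against 10.8%.

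The 8 genes varied together from animal to animal. After the 16 group means were removed, the 28 pairs had correlations over 48 arrays from 0.24 to 0.92, with a median of 0.69, and from 0.24 to 0.91 with the run also removed. All values on an array share its RNA sample, labelling and scaling. Cd5l and Clec4f were the closest pair (r = 0.92), each the nearest of 8389 probesets to the other. The C1q chains correlated with each other at 0.83 to 0.87. Csf1r and Cd163 were the least alike (r = 0.24). For comparison, 1.14% of all probesets had a correlation above 0.5 with Cd5l and 1.17% with Clec4f.

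**Figure D5:**
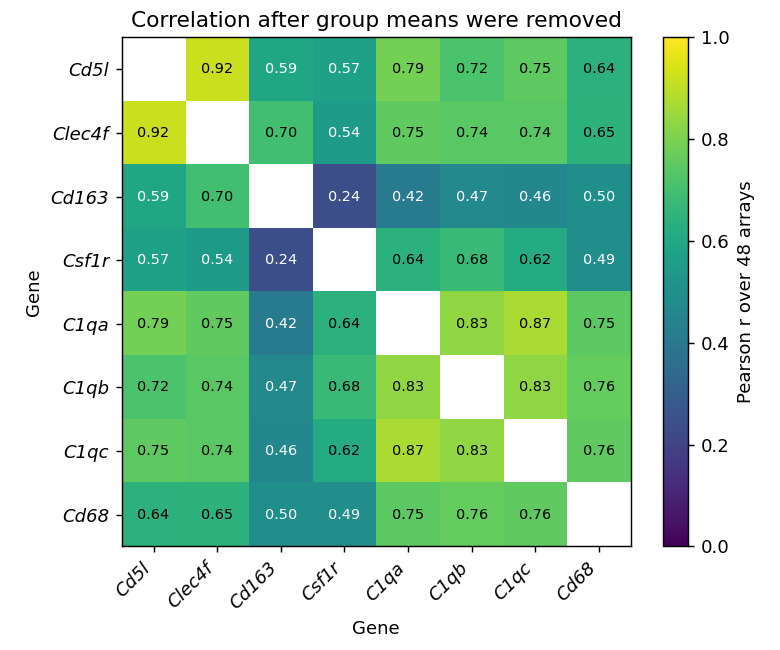
Pearson correlation of each pair of the 8 genes over 48 arrays after the group means were removed (both axes are genes). The pair of Cd5l and Clec4f is at 0.92, the C1q chains are at 0.83 to 0.87, and Cd163 with Csf1r is at 0.24.

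Genes of antigen presentation and of phagocytes were nearest to the mean of the 8. The 10 nearest were RT1-Bb (r = 0.88), RT1-Db1, Fcer1g, Ccl6, Fcna, RT1-Ba, RT1-Da, Ctss, Cd74 and Anxa3 (r = 0.81). Of these, Ccl6, a chemokine, and Fcna, the lectin ficolin A, fell at 1000 ppm by 0.26 and 0.23 (adjusted p = 0.0154 and 0.0263). The 4 class II genes RT1-Bb, RT1-Db1, RT1-Ba and RT1-Da were at -0.06 to -0.13 and did not pass (adjusted p from 0.524 to 0.822). Ctss, a lysosomal protease of antigen-presenting cells, was the second nearest gene to both Cd5l and Clec4f (r = 0.91 and 0.90) and was at -0.21 (adjusted p = 0.0532).

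Other genes of macrophages were set beside these at 1000 ppm. Of 15 further macrophage and monocyte genes tested, 2 fell, 1 rose and 14 had estimates below 0, with a median of -0.09. Over all probesets 7.01% were called lower, 7.11% higher and 52.3% were below 0. Aif1, an actin-binding protein of macrophages, fell by 0.34 ± 0.08 (adjusted p = 0.00198), and Fcgr3a, an IgG receptor, fell by 0.24 ± 0.08 (adjusted p = 0.035). Cd14, a receptor for bacterial lipopolysaccharide that hepatocytes also make, rose by 0.45 ± 0.08 (adjusted p = 9.3e-05). Adgre1, which encodes F4/80, was at -0.25 (adjusted p = 0.0991), while Lyz2 was at -0.08 (adjusted p = 0.418) and Mpeg1 at -0.06 (adjusted p = 0.477).

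Of 5 factors known for Kupffer cell identity, Id3 rose by 0.36 ± 0.12 (adjusted p = 0.036, or 0.052 with the run as a block), and Nr1h3, which encodes LXR alpha, was at -0.01 (adjusted p = 0.93). Csf1, a ligand of Csf1r, was also at -0.01 (adjusted p = 0.988). Of 6 genes of iron and haemoglobin handling, 1 fell, the iron exporter Slc40a1 (-0.27 ± 0.06, adjusted p = 0.00237). Of 6 complement partners, C1r and C1s, the proteases that join C1q, fell by 0.29 and 0.15 (adjusted p = 0.000465 and 0.0198). Their mean signals were 11707 and 16525, above the 4878 of Cd5l, and the cells they came from were not tested. Among all probesets, 7.01% were called lower and 7.11% higher at 1000 ppm. The cytokines Tnf and Il6 were listed on 3 and 2 arrays, so a change in these was not detectable. Il1b, listed on 43 arrays, was at -0.26 (adjusted p = 0.329), and Cxcl10, listed on 48, was at 0.11 (adjusted p = 0.666).

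The summed signal of the 8 genes, set beside those of other cell types, had a median of 21791 in controls (17731 to 30866) and 17804 at 1000 ppm (16536 to 25714), a ratio of 0.817. Other lists had ratios of 1.09 for 5 hepatocyte genes, 0.945 for 5 endothelial genes and 0.886 for 5 stellate cell genes. For 13 other macrophage and monocyte genes the ratio was 1.01, and for 5 genes of antigen presentation it was 0.953. These medians pool the 4 days and are not matched by day. Sums also weigh bright genes most, in the 13 Mpeg1 (mean signal 11168), Lyz2 (5469) and Cd14 (4155), and Cd14 rose. Per gene at 1000 ppm, time-matched medians of 15 other macrophage, 6 antigen presentation and the 8 genes were -0.09, -0.12 and -0.21 over the 4 days. On day 14 they were -0.22, -0.26 and -0.28, against 0.02 for all probesets. In the time-matched comparison at 1000 ppm over the 4 days, 1 of 6 endothelial genes was below 0 (against 52.3% of all probesets), and the median of the 6 was 0.06. On day 14 alone, 5 of the 6 were below 0 (against 47.2% of all probesets), with a median of -0.16. Of 5 hepatocyte genes and 6 endothelial genes tested at 1000 ppm over the 4 days, 0 passed, against 14.1% of all probesets called in either direction. Among 6 stellate genes Pdgfrb fell by 0.38 (adjusted p = 0.000465), against 7.01% of all probesets called lower, and the others were at -0.25 to -0.07. All 6 were below 0, with a median of -0.19, near the -0.21 of the 8 Kupffer cell and macrophage genes. At 500 ppm the stellate median was -0.19 and that of the 8 genes -0.14. Of 5 bile duct genes 1 was tested at 1000 ppm, the epithelial adhesion protein gene Epcam. It rose by 0.53 at 1000 ppm (adjusted p = 0.000222) and by 0.38 at 500 ppm (adjusted p = 0.0118), and its median signal at 1000 ppm was 1.47 times that of controls. At 500 ppm 2 bile duct genes were tested, and the other, Krt19, was at 0.02 (adjusted p = 0.96). Pcna, a replication factor, rose by 0.41 at 1000 ppm (adjusted p = 5.33e-07). The part of these in the change of the 8 genes was not tested.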

How the data were processed

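Liver RNA of 48 rats was hybridised to Affymetrix rat arrays, 1 animal each. The authors made the deposited intensity values with MAS 5.0, on a linear scale, with the array mean set to 500. The meaning of an absent signal is not given in the sources used here, and such values were kept as missing. A deposited table of ratio values for 776 probesets held 0 member rows and was not used.

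Log2 signals were modelled by group means (least squares, limma 3.58.1 moderation, R 4.3.3). A comparison needed 2 or more listed values per group. Benjamini-Hochberg adjustment was applied within each of 24 comparisons across all genes tested, at 0.05. The routine was tested on simulated data and checked against limma. Genes were read from their brightest probeset. Promoters came from RefSeq (GRCr8). The members and the gene lists were chosen with earlier results of these data known. From other lists, up to 4 genes past the threshold and unlisted markers were to be named, with the 10 genes nearest the mean of the 8 and the 5 nearest Cd5l, Csf1r and Clec4f. Alb, Adgre1, Lyz2, Mpeg1, Nr1h3, Csf1 and the day values of Fcgr2b and Lyve1 were added after their values were seen. So were Il1b, Cxcl10, S100a8, S100a9, Klrd1, Nkg7 and the day 14 medians of other lists. That replicates were separate animals comes from the animal numbers, and their number limits the precision. Closing paragraphs give the alternatives.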

Additional observations from a re-analysis of the deposited data

How the results depend on the processing

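The number of genes called at 1000 ppm over the 4 days, 3 as reported, was 5 without the 7 arrays whose labels conflict, 5 among probesets listed on all arrays, and 6 after quantile normalization or after division of each array by its median signal. Both scalings lowered the median of all probesets at 1000 ppm on day 14, to -0.20 and -0.21, and moved the split of calls there from 186 lower and 281 higher to 1427 and 118, and to 2217 and 132. Over the 4 days the split moved from 889 lower and 901 higher to 1294 and 595, and to 1277 and 532. Relative to that shift the median of the 8 genes on day 14 was -0.26 and -0.30, against -0.30 as reported. All 8 genes stayed below 0 at 1000 ppm over the 4 days under the 11 alternative settings and in the averages over fewer days.

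Averages that left out days were chosen after seeing the data. Without day 14 the 1000 ppm count was 0 (Cd5l -0.19, adjusted p = 0.274), without day 3 it was 1 (Cd5l), and for days 3 and 7 only, where no control or 1000 ppm array was of run 1, it was 1 (C1qa). At 500 ppm the count of 1 was 2 without the 7 arrays, and 0 with absent signals at the 10th percentile, without day 1, without day 3, without day 14 and for days 3 and 7 only. The 2 calls of single days were 1 with the run as a fixed block (C1qa at 1000 ppm on day 3), 4 after quantile normalization and 10 after division by the median. Both scalings also raised the number of all probesets called lower at 1000 ppm on day 14, from 186 to 1427 and 2217. The response on day 14 minus day 1 had 1 call after quantile normalization and 2 after division by the median, against 0.

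Leaving out 1 array at a time, the counts ran from 1 to 6 at 1000 ppm, from 0 to 2 at 500 ppm, from 0 to 0 at 50 ppm and for 1000 against 500 ppm, from 0 to 3 for single days, from 0 to 1 for day 14 against day 1 over all doses, from 0 to 0 in untreated rats, and from 0 to 1 for the response difference. Cd5l was called at 1000 ppm in all 24 such fits.

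Signs turned only for values that had not passed. For days 3 and 7 only these were Csf1r (0.0438) and C1qc (0.0389) at 500 ppm, and Cd5l (0.0436), Csf1r (0.0703), C1qa (0.0270), C1qc (0.0442), Cd68 (0.0483), Cd163 (0.0664) and Clec4f (0.0352) at 50 ppm. Without day 1, Csf1r (0.0437) and C1qa (0.0114) turned at 50 ppm, and with the run as a fixed block C1qb on day 14 of 500 ppm was 0.14. Among all 96 values of a gene at a dose and day, 16 changed sign with that block, 3 at 1000 ppm on day 1 and 3 on day 7.

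Animals with the same label number did not deviate together (mean r = 0.02 over all probesets, against -0.01 for other numbers), so the numbers were taken as names. With that number as a replicate block the 1000 ppm count was 4, C1qc being added (adjusted p = 0.0414), and the count for single days was 3, C1qa on day 3 of 1000 ppm being added. Each comparison of a single day rested on 3 arrays against 3.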
